A study of Mus musculus with 36 samples.

Results

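The genes described here are 9 markers of the GABAergic interneurons of the mouse olfactory bulb: Gad1, Gad2, Slc32a1, Synpr, Calb1, Calb2, Dlx1, Dlx2 and Dlx5. They were chosen by name as a list, and 9 of 9 were found among the 24690 genes of the series after RefSeq transcripts had been summed by gene symbol. The 36 RNA-seq libraries came from C57BL/6 mice aged 6 months, 12 of them each from the olfactory bulb (OB), the main olfactory epithelium (MOE) and the vomeronasal organ (VNO). In each tissue there were 3 libraries of sex-separated females (SF), 3 of sex-separated males (SM), 3 of sex-combined females (CF) and 3 of sex-combined males (CM). All mice had been kept 4 to a cage after weaning at 3 weeks, with cage mates of their own sex only in SF and SM and with cage mates of both sexes in CF and CM. By the study's methods, SF and SM cages stood in rooms that held mice of that sex only. Sex and room therefore cannot be told apart between SF and SM. CF and CM mice shared cages, and pups born in these cages were euthanized soon after birth. Each library was made from RNA pooled from several mice, the tissues were bulk dissections, and p-values therefore measure the spread between pools. By the study's methods the 3 tissues were taken from the same mice, so that libraries of different tissues share animals, while the fit between tissues treats them as independent.

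Interneurons are the most numerous neurons of the bulb and release GABA, the main inhibitory transmitter of the brain, mostly from dendrites onto mitral and tufted cells. They are born throughout life in the wall of the lateral ventricle and migrate to the bulb, where they become granule cells in the deep layer or periglomerular cells around the glomeruli. Gad1 and Gad2 encode the 2 glutamate decarboxylases that make GABA, and Slc32a1 encodes the transporter that loads it into vesicles. Synpr encodes synaptoporin, a synaptic vesicle membrane protein, and Calb1 (calbindin) and Calb2 (calretinin) encode calcium-binding proteins that mark separate interneuron classes. Dlx1, Dlx2 and Dlx5 encode homeodomain transcription factors of the interneuron lineage.

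In the mm9 coordinates of the deposited loci, Gad1 lies on chromosome 2 from 70400186 to 70440071, Gad2 on chromosome 2 from 22477847 to 22549397 and Slc32a1 on chromosome 2 from 158436494 to 158441483. Dlx1 lies on chromosome 2 from 71367502 to 71372038, and Dlx2 is its neighbour from 71381465 to 71384811. Dlx5 is on chromosome 6 from 6827801 to 6832068, Calb1 on chromosome 4 from 15808411 to 15833856, Calb2 on chromosome 8 from 112666438 to 112692106 and Synpr on chromosome 14 from 14117294 to 14447983. Synpr was quantified as a pair of transcripts with separate starts, a long one (NM_028052) that begins at 14117294 and a short one (NM_001163032) that begins at 14286472 inside the gene. Gad1 and Dlx5 were also listed with a pair of transcripts each, and the other 6 genes with 1 each.

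Promoter sequences were taken from RefSeq (build GRCm38.p6, 250 bases before to 50 bases after a start) and matched 6 of the 9 genes, while Calb1, Calb2 and Dlx5 had no entry. Those of Gad1, Synpr and the Dlx1 and Dlx2 pair are shown because Gad1 was the member that passed a test between the sexes (in VNO), because Synpr has separate starts whose shares were unlike in OB and MOE, and because Dlx1 and Dlx2 are neighbours with unlike levels. Capitals mark the letters GGGCGG (on the other strand CCGCCC), the core of a GC box.
Gad1, chr2:70561879-70562178, plus strand: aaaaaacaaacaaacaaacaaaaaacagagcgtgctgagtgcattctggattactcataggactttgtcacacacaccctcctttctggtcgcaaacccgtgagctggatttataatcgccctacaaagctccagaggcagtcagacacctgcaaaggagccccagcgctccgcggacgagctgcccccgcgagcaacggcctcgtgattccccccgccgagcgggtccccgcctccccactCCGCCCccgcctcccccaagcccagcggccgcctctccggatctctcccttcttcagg
Synpr, long transcript, chr14:13284530-13284829, plus strand: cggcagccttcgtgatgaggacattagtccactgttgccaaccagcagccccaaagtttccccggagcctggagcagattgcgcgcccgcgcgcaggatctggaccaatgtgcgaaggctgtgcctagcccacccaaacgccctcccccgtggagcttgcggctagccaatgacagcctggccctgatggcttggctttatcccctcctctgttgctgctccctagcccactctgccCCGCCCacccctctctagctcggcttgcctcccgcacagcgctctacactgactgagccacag
Synpr, short transcript, chr14:13453708-13454007, plus strand: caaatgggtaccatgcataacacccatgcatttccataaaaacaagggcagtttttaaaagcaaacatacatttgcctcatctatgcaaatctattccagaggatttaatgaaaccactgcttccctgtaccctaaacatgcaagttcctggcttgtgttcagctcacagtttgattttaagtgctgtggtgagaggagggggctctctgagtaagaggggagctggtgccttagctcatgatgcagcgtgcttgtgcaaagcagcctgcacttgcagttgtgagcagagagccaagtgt
Dlx1, chr2:71529195-71529494, plus strand: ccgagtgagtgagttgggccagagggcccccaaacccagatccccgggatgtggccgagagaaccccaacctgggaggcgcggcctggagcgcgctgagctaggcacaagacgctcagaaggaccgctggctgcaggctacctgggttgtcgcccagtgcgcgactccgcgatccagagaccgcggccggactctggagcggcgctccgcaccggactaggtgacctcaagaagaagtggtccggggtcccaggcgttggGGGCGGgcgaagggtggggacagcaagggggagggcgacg
Dlx2, chr2:71546705-71547004, minus strand: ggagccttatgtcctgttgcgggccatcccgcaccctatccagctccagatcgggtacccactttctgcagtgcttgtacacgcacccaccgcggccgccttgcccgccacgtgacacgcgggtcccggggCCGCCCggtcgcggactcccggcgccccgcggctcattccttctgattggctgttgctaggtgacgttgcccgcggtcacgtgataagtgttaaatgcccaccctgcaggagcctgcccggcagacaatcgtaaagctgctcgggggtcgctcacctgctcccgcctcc

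The distance between the Synpr starts was 169178 bases in the deposited mm9 loci and 169178 bases between these RefSeq promoters, which ties each promoter to its transcript. The Synpr promoters differed in composition: the one of the long transcript was 63.7% G and C with 16 CpG sites, and the one of the short transcript was 46.0% G and C with 1 CpG site, where 5.43% of all promoters had fewer. The Dlx1 and Dlx2 promoters had 27 and 29 CpG sites, against a median of 7 over 32851 promoters. GGGCGG was found on either strand in the promoters of Gad1, Dlx1, Dlx2 and the long Synpr transcript, and in 35.7% of all promoters. TATAAA, also searched on either strand, was found in that of Gad1 only among these 7 promoters, and in 13.6% of all promoters. In Gad1 it lies on the other strand, so that the printed sequence reads TTTATA there. The homeodomain core TAATTA was found in 0 of the 7, against 5.29% of all promoters, which says only that these letters are not in these windows.

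Levels in the bulb fell into 3 ranges. They are given in FPKM, the deposited unit, which counts fragments relative to transcript length and library depth, so that levels of different genes can be compared per length. Gad1, Synpr and Calb2 were the most abundant, at ranks 104, 107 and 125 among the 12795 genes with a mean of at least 0.5 FPKM in OB. Gad1 ranged from 154.9 to 207.7 FPKM over the 12 OB libraries with a mean of 179.6 ± 15.1 (SD, n = 12). Synpr had a mean of 176.2 ± 20.7 FPKM (SD, n = 12) and overlapped Gad1, which was the higher of the pair in 7 of 12 libraries. Calb2 had a mean of 144.3 ± 11.7 FPKM (SD, n = 12) and was below Synpr in 12 of 12 libraries, although their ranges over libraries overlapped.

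The transporter, Dlx1 and the other decarboxylase formed the middle range. Slc32a1 was at 21.9 ± 2.96 FPKM, Dlx1 at 21.5 ± 2.19 FPKM and Gad2 at 15.6 ± 1.67 FPKM (SD, n = 12 each). Slc32a1 and Dlx1 did not differ beyond their spread, since Slc32a1 was the higher in 6 of 12 libraries, whereas Dlx1 exceeded Gad2 in 12 of 12. The lowest levels were those of Dlx5 at 2.88 ± 0.655 FPKM, Calb1 at 2.81 ± 0.576 FPKM and Dlx2 at 1.97 ± 0.403 FPKM (SD, n = 12 each). Dlx5 exceeded Calb1 in 6 of 12 libraries, so these did not differ beyond their spread either, and Calb1 exceeded Dlx2 in 11 of 12.

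Ratios within a library show how unequal genes of the same function were. Gad1 was 11.6 ± 0.918 times Gad2 (SD, n = 12), with a range of 9.93 to 12.8, and Calb2 was 52.7 ± 7.68 times Calb1, with a range of 38.3 to 63.8. The neighbours Dlx1 and Dlx2 differed 11.2 ± 2.27 times, with a range of 8.47 to 16.0. An antisense transcript, Dlx1as, overlaps Dlx1 and was at 8.21 to 10.5 FPKM in OB. Whether counting used the strand of the kit is not given in the sources used here, so that part of the Dlx1 level cannot be told apart from Dlx1as. Gad1os, which overlaps Gad1, was at no more than 0.242 FPKM in OB.

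**Figure D1:**
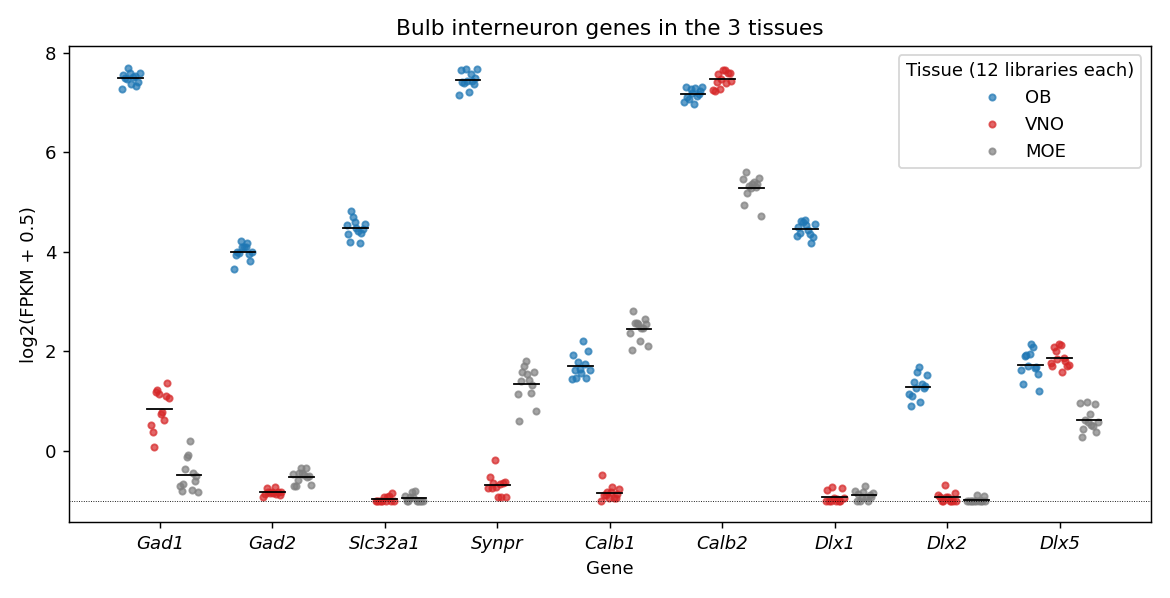
Expression of the 9 genes in the 36 libraries, on the log2(FPKM + 0.5) scale; points are libraries (blue OB, red VNO, grey MOE), black bars are means of 12 libraries and the dotted line is an FPKM of 0. Gad1, Gad2, Slc32a1, Synpr, Dlx1 and Dlx2 are highest in OB, Calb2 and Dlx5 overlap between VNO and OB, and Calb1 is highest in MOE.

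The same genes were then compared between the tissues, which asks whether markers of bulb interneurons are also transcribed in the sensory epithelia. In bulk tissue, fewer cells of a type and less RNA per cell cannot be told apart. The tissues carried their own markers: Omp, of olfactory sensory neurons, averaged 982.5 FPKM in MOE against 35.1 in OB, Trpc2, of vomeronasal sensory neurons, averaged 43.0 FPKM in VNO against 0.199 in OB, and Slc17a7, a vesicular glutamate transporter of mitral and tufted cells, averaged 58.9 FPKM in OB against 0.111 in MOE and 0.0162 in VNO.

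Gad2, Slc32a1, Dlx1 and Dlx2 entered the fit over all 36 libraries through OB alone and had to differ from the epithelia, so they and other members with a mean under 0.5 FPKM in a tissue are given as levels there, without a test. Of the 4 genes with at least 0.5 FPKM in both OB and MOE, Synpr, Calb2 and Dlx5 were higher in OB and Calb1 was lower, in limma with Benjamini-Hochberg adjustment. The tissues differ in most genes: 85.1% of the 14627 genes tested passed an adjusted p of 0.05 in this comparison, 39.3% with OB higher and 45.7% with OB lower. Of the 3 genes with at least 0.5 FPKM in both OB and VNO, Gad1 was higher in OB, Calb2 was lower and Dlx5 did not pass, beside 85.8% of all genes tested that passed, 48.0% with OB higher and 37.8% with OB lower. Of the 2 genes with at least 0.5 FPKM in both MOE and VNO, Calb2 (log2 -2.18, SE 0.0798, adjusted p = 1.07e-20 by limma) and Dlx5 (log2 -1.24, SE 0.0906, adjusted p = 2.50e-13 by limma) were lower in MOE, beside 82.6% of all genes, 48.6% with MOE higher and 34.0% with MOE lower. Upper quartile scaling moved the median over all genes to -0.10 for OB against VNO, where 5637 genes were then higher and 7137 lower in OB in place of 7025 and 5527, and from 0.15 to -0.08 for MOE against VNO, with 5460 higher and 6924 lower in MOE in place of 7114 and 4968.

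The genes of GABA synthesis and release were far higher in the bulb than in either epithelium. Slc32a1 reached at most 0.0744 FPKM in MOE and 0.0535 FPKM in VNO, was listed at 0 in 7 of 12 and 8 of 12 libraries, and was under 3 estimated fragments in 12 of 12 libraries of both tissues. Gad2 was at 0.199 FPKM in MOE, which is 1.27% of its OB level, and at 0.0609 FPKM in VNO, which is 0.390%. Between 9.59 and 28.0 estimated fragments lay behind each MOE value of Gad2 and between 1.99 and 13.0 behind each VNO value.

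Gad1 differed from Gad2 in that its higher level outside the bulb was in VNO. It averaged 1.36 ± 0.474 FPKM in VNO (SD, n = 12), which is 0.757% of the OB level, and 0.236 ± 0.180 FPKM in MOE, which is 0.131%. The log2 difference of OB and VNO was 6.64 (SE 0.0778, adjusted p = 6.56e-34 by limma). Every VNO library except SF replicate 3 was above the highest MOE library (0.641 FPKM). Between 32.1 and 123.8 estimated fragments lay behind each VNO value. The short Gad1 transcript (NM_001312900), which ends within the gene, was listed at 0 in 12 of 12 OB libraries and above 0 in 3 of 12 VNO libraries. Slc32a1 averaged 0.0114 FPKM in the same VNO libraries. Of the mitral and tufted cell list (7 genes measured in OB), Slc17a7, Tbx21 and Tbr1 averaged 0.0162, 0.0703 and 0.00326 FPKM there. These markers were picked after their values were seen and do not stand for the list, whose other genes are not reported here.

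Synpr, a vesicle gene, was also found at a low level outside the bulb, in MOE. Its 12 MOE libraries ranged from 1.01 to 2.98 FPKM with a median of 2.18, against 0.0226 to 0.375 FPKM in VNO, where 6 of 12 libraries were under 3 estimated fragments. The MOE mean was 1.19% of the OB mean (log2 6.11, SE 0.0932, adjusted p = 4.93e-31 by limma). In OB the short Synpr transcript made up between 72.5% and 76.7% of the gene's FPKM in every library. In MOE the short transcript made up 100% in 10 of 12 libraries, where the long one was listed at 0, and its lowest share was 39.2%. Each MOE value rested on 25.1 to 108.6 estimated fragments, and the split between overlapping transcripts is an estimate of the authors' software.

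Calb2 and Calb1 went the opposite way from one another across the epithelia. Calb2 had a median of 173.9 FPKM in VNO (range 150.7 to 202.0, mean 176.9 ± 18.8, SD, n = 12), which is 123% of the OB mean, and ranked 95 among 13849 genes in VNO. It was lower in OB than in VNO by 0.29 on the log2 scale (difference -0.29, SE 0.0798, adjusted p = 0.00144), although the ranges over libraries overlapped. Under upper quartile scaling the difference was -0.60 (adjusted p = 9.99e-15 by limma), and with the pools of the same name as a block across tissues it was -0.29 (adjusted p = 0.00297 by limma). In MOE it averaged 38.9 ± 6.05 FPKM (SD, n = 12), 27.0% of the OB mean, and 12 of 12 MOE libraries were below the lowest OB library. Calb1 averaged 5.002 ± 0.845 FPKM in MOE (SD, n = 12), 178% of its OB mean, and 0.0604 FPKM in VNO, 2.15% of it. The OB and MOE libraries overlapped for Calb1, with a log2 difference of -0.74 (SE 0.0902, adjusted p = 1.14e-08), and every MOE library was above every VNO library.

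The Dlx genes split in the same comparison. Dlx1 was at 21.5 FPKM in OB and at most 0.113 FPKM in MOE and 0.101 FPKM in VNO, and Dlx2 was listed at 0 in 10 of 12 MOE and 6 of 12 VNO libraries. Both were near or under 3 estimated fragments in every epithelial library, too few to compare MOE with VNO. Dlx5, by contrast, was at 3.16 ± 0.478 FPKM in VNO (SD, n = 12), beside 2.88 FPKM in OB, with a log2 difference of -0.13 (SE 0.0906, adjusted p = 0.174). Under upper quartile scaling of the libraries, that difference was -0.40 with an adjusted p of 0.000521. Dlx5 averaged 1.06 ± 0.258 FPKM in MOE (SD, n = 12), 36.9% of OB, and every MOE library was below every OB library. The ratio of Dlx1 to Dlx5 was 7.83 in OB. In VNO, Dlx1 was listed at 0 in 6 of 12 libraries and under 3 estimated fragments in 11 of 12, too few for a ratio. Dlx6, the neighbour of Dlx5 and a member of the same family, named after its values were seen, was at 4.83 FPKM in OB, 4.69 in VNO and 1.06 in MOE.

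Other genes of GABA signalling and of bulb interneurons were counted in 4 lists. Many of their genes entered the fit through OB alone and had to be higher there, so the counts between tissues are a description. In the order given below, 6, 4, 8 and 5 genes of the lists had a mean of at least 0.5 FPKM in MOE. In VNO these were 6, 7, 9 and 4. Of all genes tested, 39.3% were higher in OB than in MOE and 48.0% were higher in OB than in VNO. Of 13 genes for GABA synthesis, transport and breakdown, 11 were tested, of which 10 were higher in OB than in MOE and 1 was lower (Slc38a2, an amino acid transporter). Against VNO 10 were higher in OB and Slc38a2 did not pass. The most abundant in OB was Glul (glutamine synthetase, of glia), at 283.7 FPKM against 60.1 in MOE and 44.7 in VNO. Of 17 genes for GABA receptors and the inhibitory postsynapse, 16 were tested and 15 were higher in OB than in either epithelium, with Gabbr2 as the exception in both comparisons. Gabbr1, a subunit of the GABA-B receptor, was at 53.3 FPKM in OB, 13.5 in MOE and 7.23 in VNO.

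Of 18 interneuron transcription factors, 13 were tested, 11 were higher in OB than in MOE and 11 than in VNO, with Pax6 and Dlx6 respectively not passing. Meis2 was at 57.2 FPKM in OB, 11.9 in VNO and 2.63 in MOE, and Tshz1 at 25.3 FPKM in OB, 4.34 in VNO and 6.70 in MOE. Nr2f2, an orphan nuclear receptor, was lower in OB than in either epithelium. Of 15 interneuron subtype genes, 13 were tested, 13 were higher in OB than in MOE and 12 than in VNO. Cck and Npy, which encode neuropeptides, were at 127.9 and 69.6 FPKM in OB, and at 0.266 and 0.468 FPKM in VNO. In bulk tissue the cells that made these transcripts were not identified, and the name of the list does not give them. The exception was Pvalb (parvalbumin), which like Calb2 encodes a calcium-binding protein and was lower in OB than in VNO, at 3.66 against 19.6 FPKM (log2 -2.27, SE 0.0780, adjusted p = 6.04e-22).

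Across the 36 libraries, the genes most like the mean of the 9 members were Eno2, Slc17a7, Gria1, Gria2 and Lrp1b, each with a Pearson r of 0.999 among 14618 genes. The libraries of a tissue share their composition, so that r mostly reports the tissue step. The members themselves, each of them part of that mean, ranged from r = 0.325 for Calb1, 0.369 for Calb2 and 0.369 for Dlx5 to r = 0.999 for Dlx1.

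**Figure D2:**
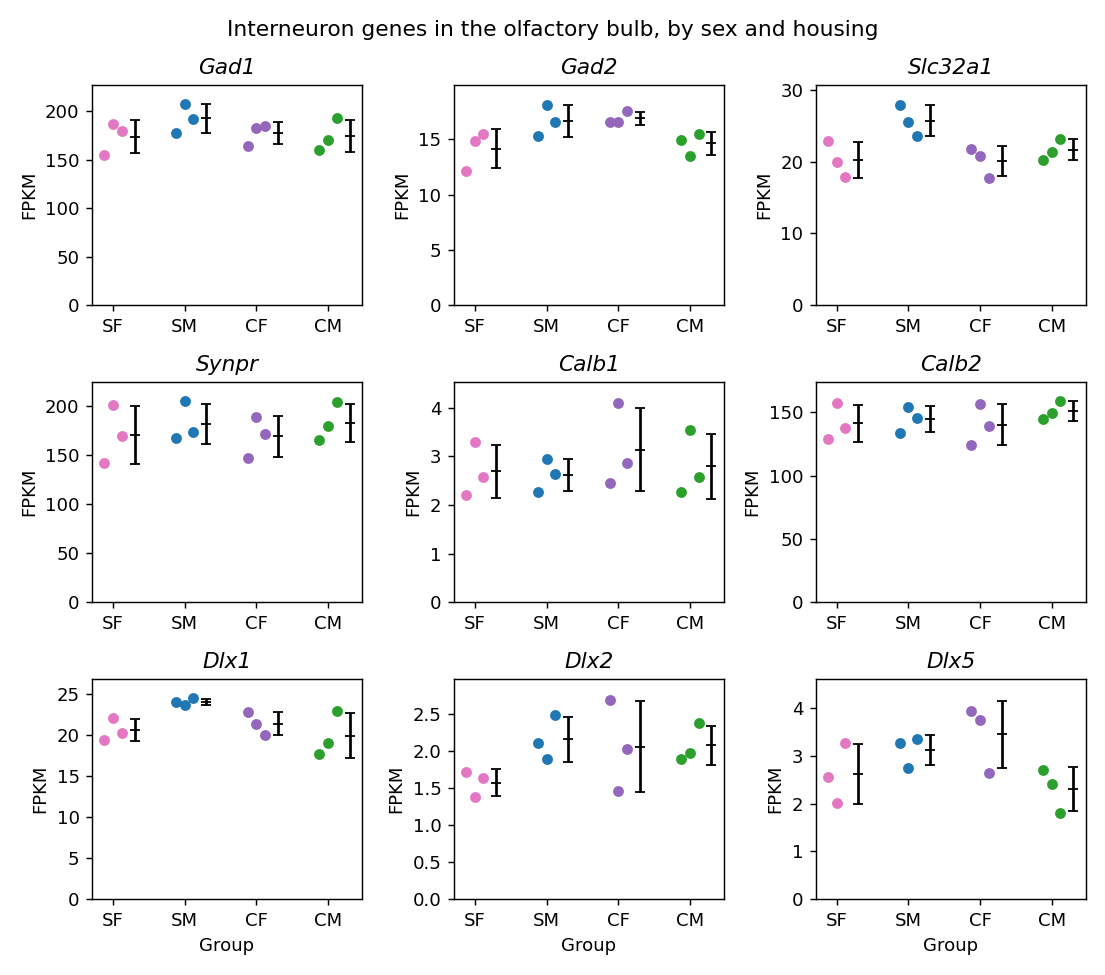
FPKM of the 9 genes in the 12 OB libraries by group; points are libraries (3 pools per group), and the bar beside each group is its mean with the SD. All axes start at 0, and the groups of most genes overlap, with Slc32a1, Dlx1 and Dlx2 lower in SF than in SM and Gad2 higher in CF than in CM without overlap.

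Within the bulb, female and male mice were compared under each housing to ask whether contact with the opposite sex goes with a different level of interneuron transcripts. In limma on the 12 bulb libraries, 0 of 9 genes passed an adjusted p of 0.05 for SF against SM, beside 0.0391% of 12795 genes. The count was also 0 of 9 for CF against CM (0.0469% of all genes), in the interaction of sex and housing (0.00782%), between females and males over both housings (0.0625%) and between sex-separated and sex-combined mice over both sexes (0.00782%). At an unadjusted p under 0.05 the members numbered 3, 1, 3, 1 and 0 of 9 in these 5 comparisons, beside 4.59%, 5.69%, 4.13%, 6.51% and 2.27% of all genes.

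Between SF and SM, the 3 SF libraries of Slc32a1 were at 22.9, 20.0 and 17.9 FPKM and the 3 SM libraries at 27.9, 25.5 and 23.6. All SF libraries were below all SM libraries, with a log2 difference of -0.34 (SE 0.114, adjusted p = 1 by limma). Dlx1 was at 19.4, 22.0 and 20.3 FPKM in SF and at 24.0, 23.7 and 24.4 in SM (log2 -0.22, SE 0.104, adjusted p = 1 by limma). Dlx2 was at 1.72, 1.38 and 1.64 FPKM in SF and at 2.11, 1.89 and 2.49 in SM (log2 -0.36, SE 0.158, adjusted p = 1 by limma). These 3 of 9 genes had SF below SM without overlap, beside 7.95% of all genes tested in that direction. The median difference of the 9 genes was -0.22, beside -0.07 over all genes. With library weights, which ran from 0.307 for SF replicate 1 to 6.20 for SM replicate 3, the 3 genes passed, with adjusted p of 0.0141 for Slc32a1, 0.0243 for Dlx1 and 0.0205 for Dlx2 by limma, as did 11% of all genes under these weights.

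For CF against CM, Gad2 and Dlx5 had the opposite order. Gad2 was at 16.5, 16.6 and 17.5 FPKM in CF and at 15.0, 13.5 and 15.5 in CM, so that all CF libraries were above all CM libraries, as for 3.08% of all genes tested. Its log2 difference was 0.20 (SE 0.106, adjusted p = 0.870 by limma), while it was -0.23 (SE 0.106) for SF against SM, and with library weights it passed (0.30, SE 0.0720, adjusted p = 0.0416 by limma), as did 5.38% of all genes. Dlx5 was at 3.95, 3.75 and 2.65 FPKM in CF and at 2.70, 2.42 and 1.81 in CM, and the groups overlapped by 1 CF library (log2 0.49, SE 0.171, adjusted p = 0.835 by limma). The interaction of sex and housing was -0.43 for Gad2 (SE 0.150, adjusted p = 0.999 by limma) and -0.72 for Dlx5 (SE 0.242, adjusted p = 0.999 by limma). With library weights the interaction passed for Gad2 (adjusted p = 0.0407 by limma) and Dlx1 (0.0424), as for 3.23% of all genes, and the difference between the sexes over both housings passed for Slc32a1 (adjusted p = 0.0181 by limma), as for 14.6% of all genes. Each Dlx5 value in OB rested on 33.7 to 69.2 estimated fragments.

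**Figure D3:**
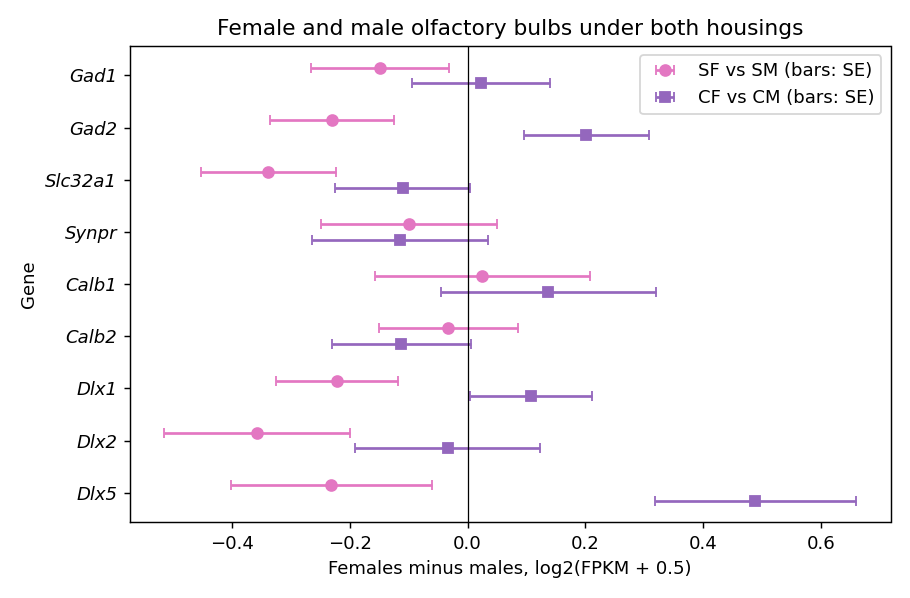
Differences between females and males in OB, on the log2(FPKM + 0.5) scale, for sex-separated (pink circles) and sex-combined mice (purple squares); bars are the SE of limma from 3 pools per group. No difference passed the adjustment over all genes, and the largest were 0.49 for Dlx5 in sex-combined mice and -0.36 for Dlx2 in sex-separated mice.

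The abundant genes had similar means in the 4 groups. Gad1 averaged 173.9 ± 16.9 FPKM in SF, 192.6 ± 15.0 in SM, 177.2 ± 11.3 in CF and 174.7 ± 16.4 in CM (SD, n = 3 each). Calb2 averaged 141.5 ± 14.7, 144.5 ± 10.3, 140.2 ± 16.3 and 151.1 ± 7.57 FPKM in the same order. The SD of Gad1 and Calb2 over the 12 OB libraries, at 0.12 each on the log2 scale, was below the median of 0.15 over all genes tested, whereas that of Dlx5 was 0.29.

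Pairs of members varied together over the OB libraries to unlike degrees. Of the 36 pairs of genes, 2 were correlated over the 12 OB libraries after adjustment over the 36 pairs. Synpr and Calb2 had a Pearson r of 0.936 (permutation p = 3.0e-05, adjusted p = 0.00108) and a Spearman rho of 0.909 (permutation p = 0.00010, adjusted p = 0.0036), and r was 0.944 without the 2 libraries farthest from the median of Synpr. Gad1 and Synpr had a Pearson r of 0.832 (permutation p = 0.00092, adjusted p = 0.0166) and a rho of 0.867 (permutation p = 0.00054, adjusted p = 0.00972), and r was 0.690 without the 2 libraries farthest from the median of Gad1. The median r of all 36 pairs was 0.207, and the lowest was -0.515, between Calb2 and Dlx5. No such count or median was computed for pairs of other genes, so these values describe the members only. Both correlations depended on the scale of the libraries, since r was 0.364 for Synpr and Calb2 and 0.107 for Gad1 and Synpr under upper quartile scaling, with adjusted permutation p of 0.365 and 0.831.

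**Figure D4:**
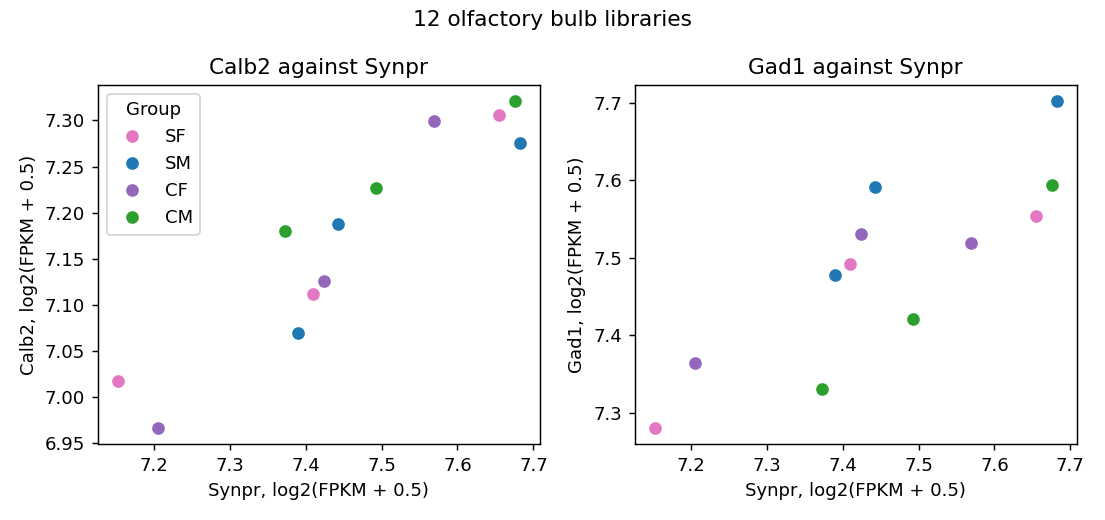
Calb2 (left) and Gad1 (right) against Synpr in the 12 OB libraries, on the log2(FPKM + 0.5) scale, coloured by group. The points rise together in both panels (r = 0.936 and 0.832) with the groups mixed along the slope.

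Over the 12 OB libraries, the genes most like the mean of the 9 members were Phc2, Abhd2, Ints3, Sarm1 and Lrrc8a, with r from 0.929 to 0.939 among 12786 genes. Dlx1, Gad1 and Gad2 were the members closest to that mean, at 0.782, 0.769 and 0.760, and Dlx2 and Dlx5 the farthest, at 0.311 and 0.313. Each member is itself part of the mean and the other genes are not, so their r cannot be set against one another. How far the scale of the libraries enters these r was not tested.

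In the VNO, 3 of the 9 genes (Gad1, Calb2 and Dlx5) passed the filter of a mean of at least 0.5 FPKM, and Gad1 was lower in females than in males. The SF libraries were at 0.936, 0.799 and 0.550 FPKM and the SM libraries at 1.76, 1.85 and 1.70. The CF libraries were at 1.18, 1.23 and 1.03 FPKM and the CM libraries at 1.63, 2.09 and 1.58. All females were thus below all males, as for 0.412% of all genes tested. Over both housings the log2 difference was -0.66 (SE 0.0894, adjusted p = 0.0132 by limma, lower in 6 of 6 female libraries), and 1 of 3 members passed, beside 0.123% of 13849 genes, 0.0794% with females lower. Between SF and SM it was -0.86 (SE 0.126, adjusted p = 0.0296 by limma), with 1 of 3 members passing beside 0.0722% of genes, 0.0578% with SF lower, and between CF and CM it was -0.46 (SE 0.126, adjusted p = 0.775 by limma), with 0 of 3 members passing beside 0.0433% of genes.

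The sex difference of Gad1 was not shown to depend on housing, with an interaction of -0.40 (SE 0.179, adjusted p = 0.895 by limma; 0% of genes passed). Between the housings, 0 of 3 members and 0% of genes passed. Nor was it shown to differ between tissues: the SF and SM difference in OB minus that in VNO was 0.71 (SE 0.220, adjusted p = 1 by limma). The added 0.5 FPKM shrinks log2 differences at the low VNO levels more than at the OB levels, so this contrast sets unlike scales side by side. Over the alternatives without a library left out, the VNO difference between SF and SM ran from -1.14 to -0.66. The call between SF and SM was lost under upper quartile scaling (adjusted p = 0.137), quantile normalization (0.116), no filter (0.0616) and a fit on the 6 libraries alone (0.168), and without any of 7 libraries in turn, with adjusted p up to 0.185. Over both housings the call was lost only without SM replicate 1 (adjusted p = 0.0534).

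**Figure D5:**
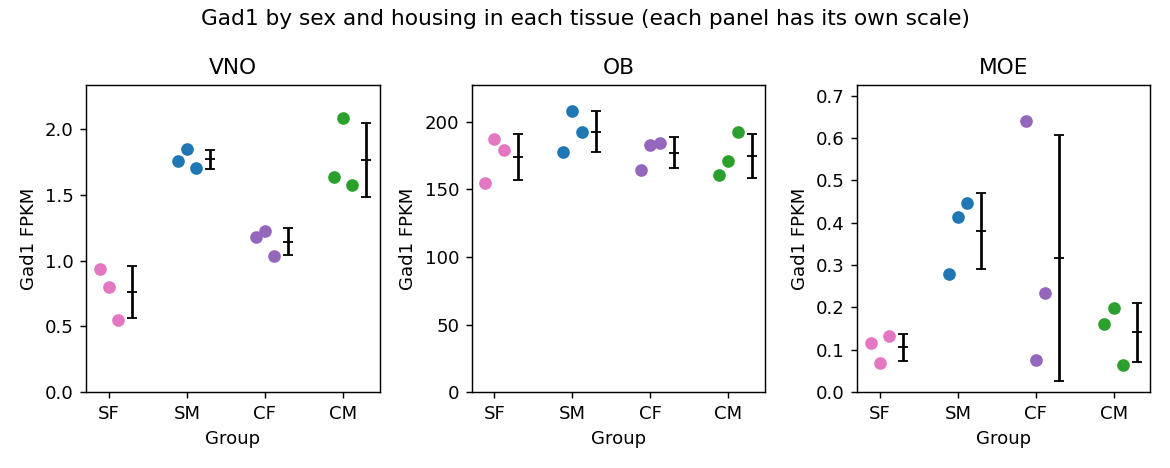
Gad1 FPKM by group in VNO, OB and MOE, each panel with its own scale from 0; points are libraries, and the bar beside each group is its mean with the SD (n = 3). In VNO the 6 female libraries (0.550 to 1.23) sit below the 6 male libraries (1.58 to 2.09), while in OB the groups overlap.

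Summed markers of olfactory sensory neurons and of bone and cartilage did not overlap between some of the same groups in VNO. The sums were not tested, and how many bone and cartilage markers went each way is not reported here. The other marker lists are not reported here for these groups, and a sum can follow its most abundant gene. The 10 olfactory sensory neuron markers summed to between 128.7 and 154.6 FPKM in SF and between 158.2 and 193.6 in SM. Of these, 10 of 10 were lower in SF, 0 passed the adjustment and 0 were at 0. The share of all genes lower in SF is not given here, so this count describes these markers only. The sums of these 10 markers overlapped between CF (160.8 to 200.2) and CM (154.9 to 189.1). The 8 bone and cartilage markers summed to between 141.7 and 192.5 FPKM in SF and 118.8 and 135.9 in SM, and to between 163.7 and 176.3 in CF and 111.4 to 123.4 in CM, with 0 passing the adjustment. The part of either in the Gad1 result was not tested. Of the 4 GABA and interneuron lists, 0 genes passed in any comparison of sex or housing in VNO by limma.

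The remaining VNO members did not pass. Calb2 was at 157.2 ± 10.1 FPKM in SF, 174.0 ± 18.3 in SM, 190.4 ± 18.9 in CF and 186.0 ± 12.3 in CM (SD, n = 3 each), with a difference between housings of -0.19 (SE 0.0819, adjusted p = 0.636 by limma). Dlx5 differed by -0.15 between SF and SM (SE 0.138, adjusted p = 0.740 by limma) and by 0.12 between CF and CM (SE 0.138, adjusted p = 1 by limma).

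In the MOE, 4 of the 9 genes (Synpr, Calb1, Calb2 and Dlx5) passed the filter and 0 of 4 passed in any of the 5 comparisons, beside 0.102% of 13757 genes for SF against SM, 0.0436% for CF against CM, 0.0363% in the interaction, 0.0727% between the sexes and 0.102% between the housings. At an unadjusted p under 0.05 the members numbered 1, 0, 1, 0 and 0 of 4, beside 4.16%, 1.75%, 4.59%, 1.86% and 3.31% of all genes. Synpr was at 1.72, 1.01 and 2.16 FPKM in SF and at 2.50, 2.76 and 2.98 in SM. All SF libraries were below all SM libraries, as for 6.54% of all genes tested, with a log2 difference of -0.65 (SE 0.222, adjusted p = 0.909 by limma). With library weights it passed (-0.55, SE 0.118, adjusted p = 0.0144 by limma), as did 13.2% of all genes, with weights from 0.0503 for CM replicate 3 to 5.64 for SF replicate 1. In CF (2.41, 2.197 and 1.74 FPKM) and CM (2.00, 2.51 and 1.25) the groups overlapped.

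Gad1 was under the filter in MOE and was not tested between groups there. Its SF libraries were at 0.116, 0.0697 and 0.132 FPKM and its SM libraries at 0.278, 0.415 and 0.447, while CF spanned 0.0768 to 0.641 and CM 0.0649 to 0.200. The SF values rested on 2.97 to 4.71 estimated fragments each, near the floor of 3. MOE CM replicate 3 had the fewest estimated fragments of all libraries, 3016520, and the lowest sum of the 9 genes in MOE, 32.0 FPKM against a median of 49.7.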

How the data were processed

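Per the labels and the study's methods, total RNA depleted of ribosomal RNA was sequenced as stranded paired-end libraries. The authors aligned reads with TopHat2 2.1.0 to mm9 and computed FPKM values with Cufflinks 2.2.1.0 (versions from the submitters' processing notes). The deposited tables give FPKM and its confidence limits for 40150 (MOE) or 40008 (VNO, OB) transcript loci per library. The number of mice per pool differs between the labels and the study.

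Transcripts were assigned to symbols by RefSeq accession (99.7% of loci) and summed. Genes with an entry not marked as successful were left out (5 in MOE, 1 each in VNO and OB). FPKM holds no counts, so fragments were estimated from the confidence limits, by dividing each FPKM by its standard error and squaring, totalling 3016520 to 6779890 per library, with a floor of 3. These estimates cover counting error only and fall where a gene is split among transcripts.

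The test was limma (version 3.58.1, R version 4.3.3; lmFit, then eBayes with trend) on log2(FPKM + 0.5). Genes under a mean of 0.5 FPKM were left out. It was run in 1 fit per tissue over 12 libraries or, between tissues, 1 fit over 36. Benjamini-Hochberg adjustment covered every gene in a fit, and the threshold was 0.05. Comparisons within a tissue share libraries. Correlations used two-sided permutation tests with 100000 resamples. No pair of libraries was a duplicate (at most 0.0113% identical values). Scripts were tested on simulated data. Python 3.11.15, numpy 2.4.6, pandas 2.3.3, scipy 1.17.1 and matplotlib 3.10.9 were used.

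All 9 members are named. Of each other list, the text names the genes that passed in a comparison of sex or housing and otherwise the 2 with the highest mean FPKM in OB (some are not reported here), and of genes like the members the 5 with the highest r. Exceptions to a count (Slc38a2, Gabbr2, Nr2f2, Pax6, Pvalb), Dlx6 and markers named beside a result were chosen after their values were seen. The members and lists were chosen with earlier results of these data known. Alternatives were pseudocounts of 0.1 and 1, no filter, upper quartile or quantile scaling, library weights, the replicate number as a block, a fit on the 6 libraries compared, loci in all tables only and each library left out.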

Additional observations from a re-analysis of the deposited data

How the results depend on the processing

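Of 2740 log2 differences of single genes under alternatives, 2719 stayed on their side of the threshold, 12 fell below it, 9 passed it newly and 0 reversed, where a gene not called under either setting counts as unmoved. The 2740 include differences between tissues, some of members that entered the fit through OB alone and had to differ. The count therefore does not measure how stable the results were. The calls that fell below the threshold were those of Gad1 between the sexes in VNO.

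With library weights, which ran from 0.307 to 6.20 in OB and from 0.0503 to 5.64 in MOE, the called members in OB were 3 for SF against SM (Slc32a1, Dlx1 and Dlx2, beside 11% of all genes), 1 for CF against CM (Gad2, beside 5.38%), 2 in the interaction (Gad2 and Dlx1, beside 3.23%) and 1 between the sexes (Slc32a1, beside 14.6%), and in MOE 1 for SF against SM (Synpr, beside 13.2%). The cause was not tested. In VNO between SF and SM, 0 members were called with no filter, upper quartile scaling, quantile normalization or only the 6 libraries compared, and leaving out 1 library gave 0 to 1. Over both housings, leaving out 1 library gave 0 to 1 in VNO.

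Correlated pairs numbered 1 with upper quartile scaling (Calb2 and Dlx1, r = -0.869), 0 with quantile normalization and 6 for deviations from the group means, and 1 to 4 when 1 library was left out. Without OB CF replicate 1 there were 4 pairs, and without OB SF replicate 1 or OB SM replicate 2 there was 1. With the replicate block, an alternative added after seeing the data, the pairs were 2, Synpr with Calb2 and Gad1 with Dlx1, and Gad1 with Synpr no longer passed (r = 0.677, adjusted permutation p = 0.0982).

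Of pairs of same-numbered libraries of different groups, 2 of 18 in OB, 3 of 18 in MOE and 8 of 18 in VNO had deviations with a correlation over 0.1, against 6 of 36, 2 of 36 and 4 of 36 of those with different numbers. In VNO the median r was 0.0793 for the same number and -0.0427 for different numbers. Since not every same-numbered pair was over 0.1, the numbers were not taken to pair the libraries in the main fits. That rule is no test of a factor shared by libraries of the same number, which was not tested. In VNO the share over 0.1 was higher for the same number than for different numbers. With the replicate number as a block, the called members stayed at 1 in VNO between SF and SM and 1 over both housings and at 0 in OB and MOE. Levels at or under 3 estimated fragments, such as Slc32a1 and Dlx2 outside OB, cannot be compared at this depth.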
